A study of Homo sapiens with 12 samples.

Results

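The genes described here build cholesterol and fatty acids in the cell or control that synthesis through SREBP, the sterol regulatory element binding proteins. They were chosen as a list of 35 genes, of which 32 were matched by symbol among the 16599 genes of the deposited count table, and all 32 were tested. They comprise 5 SREBP regulators, 17 of 18 listed sterol synthesis genes, 9 of 11 fatty acid genes and STARD4, a cholesterol carrier. ACACA, FADS1 and CYP51A1 were not analysed here. The groups were H1650 cells over-expressing SRSF2, untreated H1650 cells, A549 cells over-expressing SRSF2 and untreated A549 cells, with 3 libraries of polyadenylated RNA each. A549 and H1650 are established cell lines from human lung adenocarcinomas, and SRSF2 is a splicing factor of the serine/arginine-rich family. The titles of the untreated libraries carry the letters NC, the way in which SRSF2 was introduced is not given, and it is not stated whether the over-expressing cells were clones. Nothing says that replicates were separate cultures, and the spread behind each p-value may therefore be technical.

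SREBPs are made as membrane proteins of the endoplasmic reticulum. When sterols are scarce, the escort protein SCAP carries them to the Golgi, where they are cut and released as transcription factors. When sterols are plentiful, INSIG proteins hold SCAP back. The SREBP encoded by SREBF2 acts mainly on cholesterol synthesis genes, and the SREBF1 products act mainly on fatty acid synthesis genes. Tumour cells of epithelial origin often run both pathways to supply membranes.

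Total counts ran from 23876899 to 32079027 per library. Levels are CPM, counts per 1000000 counts after TMM scaling. A difference was called at an edgeR quasi-likelihood adjusted p under 0.05 over 15991 genes, and SE is the standard error of the log2 fold change. H1650 SRSF2 replicate 3 stood apart from the other SRSF2 libraries of that line on the second principal component (-33.8, against -45.2 and -42.2). Without it 23 members were called in H1650, 8 higher and 15 lower, the same counts as with it. By plain totals the 5 epithelial markers summed to 7320 to 7849 CPM in H1650 SRSF2 and 8191 to 8366 CPM in untreated H1650 libraries, and to 6395 to 6422 CPM in A549 SRSF2 and 6991 to 7503 CPM in untreated A549 libraries. The sums were lower with SRSF2 in both lines, but the markers did not move together. In H1650, KRT19 (561 to 612 CPM with SRSF2 and 1303 to 1309 CPM untreated) and CDH1 were lower, EPCAM and KRT18 were higher and KRT8 overlapped. In A549, KRT19 was higher (118 to 128 CPM with SRSF2 and 99.9 to 102 CPM untreated) and the other 4 were lower. Their part in the results was not tested. EPCAM was at 294.5 to 354 CPM in H1650 libraries and 3.39 to 6.33 CPM in A549 libraries. Of 5 lung lineage markers only SFTPB was matched, at no more than 0.405 CPM, and 4, NKX2-1 among them, were not analysed here. Of 5 leukocyte and 6 fibroblast markers 2 each were matched, and their sums were at most 13.9 and 22.7 CPM, while no endothelial marker was matched. No source used here says whether reads were counted by strand, so those of SREBF1 and RAI1, SREBF2 and SREBF2-AS1, ACAT2 and TCP1, MVK and MMAB, IDI1 and IDI2-AS1, HMGCS1 and AC114947.2, and STARD4 and STARD4-AS1, which overlap on opposite strands, cannot be told apart there. TM7SF2 and VPS51, and FADS2 and FEN1, overlap on the same strand. In bulk RNA, a smaller share of cells expressing a gene and less RNA of it per cell cannot be told apart.

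Promoter windows, from 250 bases before to 50 bases after a RefSeq start (GRCh38.p14), were found for 28 of the 32 genes, and not for ACAT2, FDFT1, SQLE and FASN. The box TCACNCCAC, a sterol regulatory element to which SREBPs bind, was present on either strand in 1 member (3.57%), SREBF2 (at -133 from the start), against 1.33% of the 11242 tested genes with a window. The box CCAAT, bound by NF-Y, a factor that works beside SREBPs, was present on either strand in 23 members (82.1%), against 42.0% of tested genes. By role, 13 of 14 sterol synthesis genes, 7 of 8 fatty acid genes, 2 of 5 regulators and STARD4 held it. PMVK, ELOVL6, SREBF1, SCAP and INSIG2 had no match. GGGCGG, bound by Sp1, was present in 26 members (92.9%) against 75.0%. None of these motifs contains another, and a match describes letters, not binding. Only exact matches within the windows were counted, so sterol regulatory elements spelled otherwise or lying elsewhere would be missed. The 250 bases before the start are printed for 6 members, chosen because the results turn on them, 5′ to 3′ on the strand of the gene, with TCACNCCAC and CCAAT matches (ATTGG on the other strand) in capitals.
SREBF2 (chr22:41832855-41833104, plus strand), the only one of the 28 members with a window that held an exact TCACNCCAC match: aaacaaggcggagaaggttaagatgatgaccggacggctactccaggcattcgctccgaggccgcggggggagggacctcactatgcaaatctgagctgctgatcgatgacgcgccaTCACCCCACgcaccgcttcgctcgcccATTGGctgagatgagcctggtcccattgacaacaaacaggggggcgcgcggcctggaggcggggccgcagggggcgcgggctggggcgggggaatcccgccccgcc
HMGCS1 (chr5:43313413-43313662, minus strand, one of its windows), higher in both lines: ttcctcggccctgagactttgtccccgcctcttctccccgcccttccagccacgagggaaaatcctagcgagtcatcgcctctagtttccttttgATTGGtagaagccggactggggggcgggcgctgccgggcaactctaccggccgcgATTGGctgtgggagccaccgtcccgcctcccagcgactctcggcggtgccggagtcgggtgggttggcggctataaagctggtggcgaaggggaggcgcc
INSIG1 (chr7:155297628-155297877, plus strand), called in opposite directions in the lines: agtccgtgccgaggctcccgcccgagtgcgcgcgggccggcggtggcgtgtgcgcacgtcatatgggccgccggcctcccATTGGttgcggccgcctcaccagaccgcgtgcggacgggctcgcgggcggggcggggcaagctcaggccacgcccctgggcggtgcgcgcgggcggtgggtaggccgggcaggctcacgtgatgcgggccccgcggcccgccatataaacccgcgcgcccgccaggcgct
SCD (chr10:100346983-100347232, plus strand), lower in H1650: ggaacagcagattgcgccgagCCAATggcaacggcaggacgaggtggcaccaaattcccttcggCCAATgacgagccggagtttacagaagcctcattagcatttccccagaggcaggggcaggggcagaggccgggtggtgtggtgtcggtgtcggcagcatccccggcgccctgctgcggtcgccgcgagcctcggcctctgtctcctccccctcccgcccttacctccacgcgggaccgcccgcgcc
ELOVL6 (chr4:110198616-110198865, minus strand), the largest fall in H1650: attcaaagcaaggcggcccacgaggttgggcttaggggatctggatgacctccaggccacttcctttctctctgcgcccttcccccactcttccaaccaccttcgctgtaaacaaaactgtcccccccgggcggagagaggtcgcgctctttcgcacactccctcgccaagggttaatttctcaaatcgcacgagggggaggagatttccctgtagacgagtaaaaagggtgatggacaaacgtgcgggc
FA2H (chr16:74774821-74775070, minus strand), the largest rise in H1650: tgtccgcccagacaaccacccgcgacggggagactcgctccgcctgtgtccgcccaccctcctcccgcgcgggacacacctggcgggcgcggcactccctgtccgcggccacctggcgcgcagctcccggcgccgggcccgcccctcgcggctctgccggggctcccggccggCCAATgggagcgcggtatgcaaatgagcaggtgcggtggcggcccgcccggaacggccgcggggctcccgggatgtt

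The untreated lines already differed at nearly every one of these genes. Of 32 members, 13 were higher and 18 lower in untreated H1650 than in untreated A549 cells (96.9%), where 82.4% of all genes tested were called, 40.1% higher and 42.3% lower. The size of the differences was smaller than usual, with a median absolute log2 ratio of 0.522 over the members and 0.757 over all genes tested. No member overlapped between the lines, with every H1650 library above for 14 and below for 18, beside 40.9% and 43.1% of all genes. The widest gaps were in the fatty acid genes. FA2H, a hydroxylase of the fatty acids used in sphingolipids, had 1.58, 2.41 and 2.68 CPM in untreated H1650 libraries, against 44.9, 43.2 and 42.1 CPM in untreated A549 libraries (log2 -4.29, SE 0.10, edgeR adjusted p = 1.22e-29). FADS2, the desaturase that opens the polyunsaturated pathway, had 55.4, 59.5 and 58.7 CPM in untreated H1650 libraries, against 646.7, 639.5 and 652.7 CPM in untreated A549 libraries (log2 -3.48, SE 0.04, edgeR adjusted p = 4.07e-37). No library of either line came near those of the other at these genes. ACLY, which makes cytosolic acetyl-CoA from citrate, was also lower in H1650 (log2 -1.69, SE 0.03), and so was SCD, the desaturase that makes oleate (log2 -0.97, SE 0.04). LSS, lanosterol synthase, was the member furthest above A549 in untreated H1650 cells (log2 1.12, SE 0.04), followed by the methylsterol oxidase MSMO1 (log2 0.96, SE 0.06) and ELOVL6, which extends palmitate to stearate (log2 0.95, SE 0.05). The edgeR adjusted p of these genes was at most 1.73e-17.

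**Figure D1:**
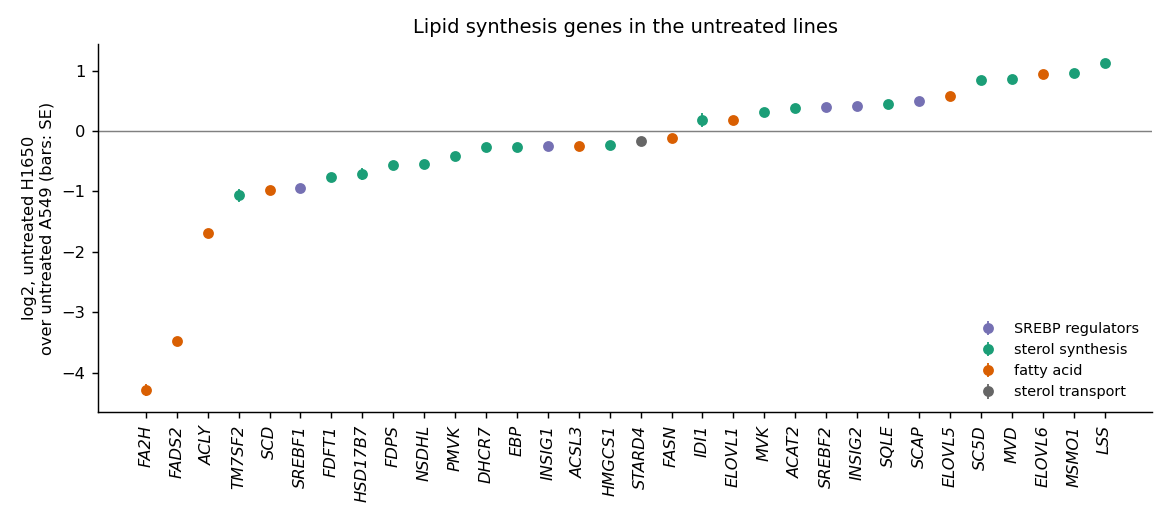
Log2 ratio of untreated H1650 over untreated A549 cells for the 32 members (edgeR, n = 3 libraries each, bars are SE, zero means equal levels), coloured by role. FA2H, FADS2 and ACLY lie lowest at -4.29, -3.48 and -1.69, and LSS lies highest at 1.12.

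Per kilobase of exon (GENCODE 29), the most abundant members in both untreated lines belonged to the fatty acid class. In untreated H1650 cells SCD averaged 82.6, FASN 69.6 and ACLY 58.1 CPM per kb, and in untreated A549 cells ACLY averaged 188, SCD 162 and FASN 75.4 CPM per kb. The most abundant sterol genes stood below these levels. SQLE averaged 32.9 CPM per kb in untreated H1650 cells and HMGCS1 35.1 CPM per kb in untreated A549 cells. FA2H was the lowest member in untreated H1650 cells, at 0.678 CPM per kb.

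With SRSF2 over-expression, members moved mostly downward in H1650 and mostly upward in A549. In H1650, 8 members rose and 15 fell, and 9 were not called. That is 71.9% of members, against 62.3% of all genes tested, with 31.0% of genes higher and 31.3% lower. In A549, 15 members rose and 3 fell, and 14 were not called. That is 56.2% of members, against 32.3% of all genes, with 16.4% higher and 15.9% lower. In H1650, every SRSF2 library lay below every untreated library for 16 of 32 members and above for 8, beside 32.6% and 32.1% of all genes. In A549 these counts were 4 and 18, beside 23.0% and 22.7% of all genes. The median log2 fold change over the 32 members was -0.09 in H1650 and 0.13 in A549, against 0.00 in both lines over all genes. Regardless of direction, the median absolute log2 fold change of members was 0.337 in H1650 and 0.186 in A549. Over all genes tested it was 0.357 and 0.163, so members did not change more than other genes in H1650.

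**Figure D2:**
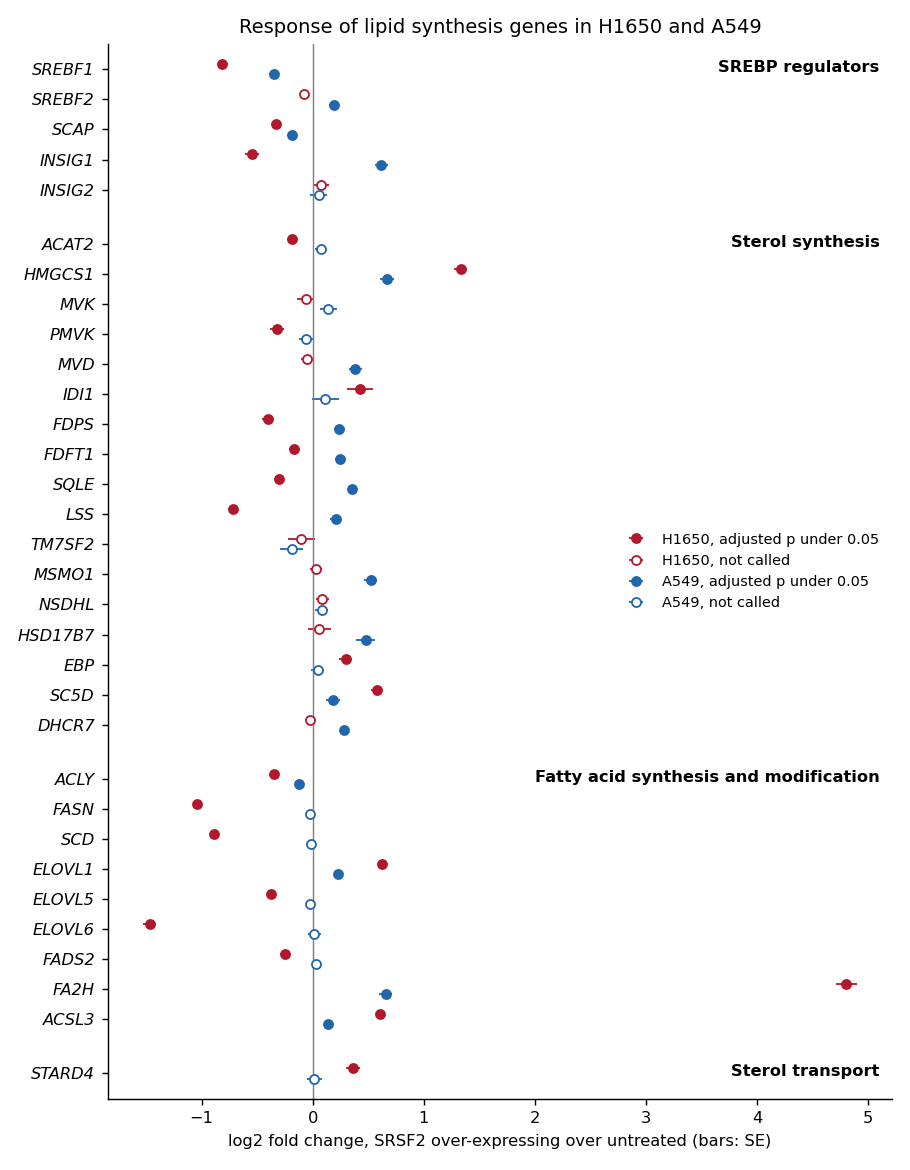
Log2 fold change of SRSF2 over-expressing over untreated cells for each member in H1650 and A549 (edgeR, n = 3 libraries per group, bars are SE), by role. Filled points have an adjusted p under 0.05. FASN, SCD and ELOVL6 lie near zero in A549 and at -1.04, -0.89 and -1.47 in H1650, and FA2H lies at 4.80 in H1650.

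Among the regulators, SREBF1 and SCAP fell in both lines. SREBF1 (GRCh38 chromosome 17, 17810399 to 17837002) had 86.8, 100.1 and 98.9 CPM in H1650 SRSF2 libraries, against 168, 163 and 172 CPM in untreated H1650 libraries (log2 -0.82, SE 0.05, edgeR adjusted p = 1.93e-16). The A549 SRSF2 libraries had 237, 253.5 and 269 CPM in SRSF2 libraries, against 330.0, 328 and 308.5 CPM in the untreated ones (log2 -0.35, SE 0.05, edgeR adjusted p = 2.30e-07). The groups did not overlap in either line, and the fall was larger in H1650 (difference in log2 -0.47, SE 0.07, edgeR adjusted p = 3.78e-07). SCAP had 94.2, 96.4 and 97.7 CPM in H1650 SRSF2 libraries, against 119.8, 118 and 124 CPM in untreated H1650 libraries (log2 -0.33, SE 0.04, edgeR adjusted p = 3.09e-08). Its A549 SRSF2 libraries had 73.8, 75.1 and 76.4 CPM, against 86.9, 89.0 and 80.9 CPM in untreated A549 libraries (log2 -0.19, SE 0.04, edgeR adjusted p = 0.00106). The groups were apart in both lines, and the difference between the responses (log2 -0.14) was not called (edgeR adjusted p = 0.0594). It was called with plain library totals (log2 -0.21), without a filter on low counts (-0.15), on both FPKM scales (-0.14 and -0.21), and without A549 untreated replicate 2 (-0.17), H1650 untreated replicate 2 (-0.16) or H1650 SRSF2 replicate 3 (-0.16). SREBF2 rose slightly in A549 (log2 0.19, SE 0.04, edgeR adjusted p = 3.26e-04). The change in H1650 was -0.08 and was not called (edgeR adjusted p = 0.0827). It was called lower there with plain library totals (log2 -0.16), on both FPKM scales (-0.12 and -0.15) and without untreated replicate 2 or SRSF2 replicate 1 (-0.10 each).

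INSIG1, itself a well-known SREBP target, changed in opposite directions. It had 19.0, 19.6 and 16.9 CPM in H1650 SRSF2 libraries, against 26.5, 28.7 and 25.8 CPM in untreated H1650 libraries (log2 -0.55, SE 0.07, edgeR adjusted p = 8.68e-09). With SRSF2, A549 libraries had 50.3, 51.1 and 46.2 CPM, against 31.3, 32.2 and 32.9 CPM in untreated libraries (log2 0.62, SE 0.06, edgeR adjusted p = 4.81e-10). The libraries separated fully in both lines, and the responses differed by -1.16 on the log2 scale (SE 0.09, edgeR adjusted p = 6.75e-13). Its relative INSIG2 was not called in either line (log2 0.08 in H1650, SE 0.07, and 0.05 in A549, SE 0.08).

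Among the classes of members, only sterol synthesis had calls in a single direction in A549. Of its 17 tested genes, 10 rose and none fell, with 7 not called, and the median log2 fold change was 0.21. In H1650, 4 rose, 6 fell and 7 were not called, with a median of -0.06. The 58.8% of sterol genes called in H1650 was near the 62.3% of all genes, and the same 58.8% in A549 stood beside 32.3% of all genes. HMGCS1, the synthase that makes HMG-CoA from acetyl units (GRCh38 chromosome 5, 43289395 to 43313512), rose most in both lines. It had 406, 340.5 and 311 CPM in H1650 SRSF2 libraries, against 143, 138 and 139 CPM in untreated H1650 libraries (2.51-fold, log2 1.33, SE 0.06, edgeR adjusted p = 1.93e-19). In A549 HMGCS1 had 284, 266 and 236 CPM in SRSF2 libraries, against 164, 172 and 159 CPM in untreated libraries (1.59-fold, log2 0.67, SE 0.06, edgeR adjusted p = 1.18e-10). The lowest SRSF2 library stood well above the highest untreated library in each line, and the SRSF2 libraries varied more among themselves than the untreated ones.

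Further along the mevalonate and squalene steps the lines parted. In H1650, 4 enzymes fell that rose in A549: the farnesyl diphosphate synthase FDPS, the squalene synthase FDFT1, the squalene epoxidase SQLE and LSS. With INSIG1 these were 5 of 32 members lower in H1650 and higher in A549, a pattern found in 3.13% of all genes tested. Calls in opposite directions either way made up 5.97% of all genes, and no member showed the reverse pattern. LSS (GRCh38 chromosome 21, 46188141 to 46228824) had 84.4, 79.1 and 82.5 CPM in H1650 SRSF2 libraries, against 136, 133 and 135.5 CPM in untreated H1650 libraries (log2 -0.72, SE 0.04, edgeR adjusted p = 3.43e-16). In A549 LSS had 68.1, 73.4 and 72.9 CPM in SRSF2 libraries, against 61.6, 64.9 and 59.6 CPM in untreated libraries (log2 0.21, SE 0.05, edgeR adjusted p = 6.52e-04). The H1650 libraries lay far apart, while those of A549 came close without overlapping. SQLE had 117, 112 and 114 CPM in H1650 SRSF2 libraries, against 141, 145 and 139 CPM in untreated H1650 libraries (log2 -0.31, SE 0.04). In A549 SQLE had 139, 131 and 130.1 CPM in SRSF2 libraries, against 103.5, 102 and 108 CPM in untreated libraries (log2 0.35, SE 0.04), so both lines separated in opposite directions. FDPS, whose pseudogenes may share its reads, had 29.2, 33.5 and 33.7 CPM in H1650 SRSF2 libraries, against 44.8, 40.9 and 42.3 CPM in untreated H1650 libraries (log2 -0.41, SE 0.06). In A549 FDPS had 74.2, 77.2 and 72.0 CPM in SRSF2 libraries, against 64.2, 61.7 and 63.5 CPM in untreated libraries (log2 0.24, SE 0.05). Again neither line overlapped. FDFT1 had 64.3, 75.7 and 73.2 CPM in H1650 SRSF2 libraries, against 82.8, 79.0 and 77.8 CPM in untreated H1650 libraries (log2 -0.17, SE 0.05). In A549 FDFT1 had 159, 163 and 158 CPM in SRSF2 libraries, against 136, 130.1 and 139 CPM in untreated libraries (log2 0.24, SE 0.05). The H1650 groups were close at FDFT1, 75.7 CPM with SRSF2 and 77.8 CPM untreated at the nearest. The edgeR adjusted p of SQLE, FDPS and FDFT1 was at most 0.00331.

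The other called sterol genes of A549 rose without a call in H1650, except SC5D. MSMO1 had 45.6, 44.5 and 42.3 CPM in A549 SRSF2 libraries, against 30.2, 28.9 and 33.2 CPM in untreated A549 libraries (log2 0.52, SE 0.06, edgeR adjusted p = 7.49e-09). Its H1650 groups overlapped, with 60.2, 62.7 and 60.6 CPM in SRSF2 libraries, against 57.3, 64.1 and 58.6 CPM in untreated libraries (log2 0.03, SE 0.05). HSD17B7, a reductase of sterol demethylation with a closely similar pseudogene, had 18.1, 16.97 and 15.2 CPM in A549 SRSF2 libraries, against 11.2, 12.02 and 12.9 CPM in untreated A549 libraries (log2 0.48, SE 0.09). MVD, the mevalonate diphosphate decarboxylase, had 44.4, 43.3 and 44.0 CPM in A549 SRSF2 libraries, against 35.2, 33.1 and 32.6 CPM in untreated A549 libraries (log2 0.38, SE 0.06). Both separated fully in this line. DHCR7, the reductase that yields cholesterol, rose there by 0.28 on the log2 scale, and the edgeR adjusted p of HSD17B7, MVD and DHCR7 was at most 5.05e-05. In H1650 these 3 were at 0.06, -0.06 and -0.02 and were not called. With plain library totals, MVD (-0.14) and DHCR7 (-0.10) were called lower in H1650, and both FPKM scales gave the same calls (-0.11 and -0.13 for MVD, -0.08 and -0.10 for DHCR7).

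In H1650, SC5D, a late sterol desaturase, EBP, a sterol isomerase, and IDI1, the isomerase of isoprenoid units, rose with HMGCS1. SC5D had 57.9, 54.2 and 53.1 CPM in H1650 SRSF2 libraries, against 37.3, 37.9 and 35.2 CPM in untreated H1650 libraries (log2 0.58, SE 0.06, edgeR adjusted p = 3.53e-11). In A549 SC5D had 23.3, 23.5 and 22.8 CPM in SRSF2 libraries, against 22.1, 19.5 and 19.7 CPM in untreated libraries. This small rise (log2 0.18, SE 0.06, edgeR adjusted p = 0.0256) was lost with DESeq2 (adjusted p = 0.0634), without untreated replicate 2 or 3 (adjusted p = 0.121 and 0.104) and without SRSF2 replicate 1 or 2 (adjusted p = 0.0614 and 0.0822). EBP changed by log2 0.30 in H1650 and 0.04 in A549 (edgeR adjusted p = 3.63e-05 and 0.605). IDI1, a low member, had 9.20, 8.99 and 6.92 CPM in H1650 SRSF2 libraries, against 6.72, 5.72 and 6.16 CPM in untreated H1650 libraries (log2 0.42, SE 0.11, edgeR adjusted p = 0.00147). Its groups nearly touched there, and in A549 it changed by log2 0.11 (edgeR adjusted p = 0.52). The thiolase ACAT2 fell in H1650 (log2 -0.18, edgeR adjusted p = 0.00245) and was not called in A549 (0.07). The phosphomevalonate kinase PMVK had 25.3, 27.4 and 24.8 CPM in H1650 SRSF2 libraries, against 31.9, 31.5 and 33.4 CPM in untreated H1650 libraries (log2 -0.32, SE 0.06, edgeR adjusted p = 3.57e-05). In A549 PMVK had 38.7, 43.3 and 40.9 CPM in SRSF2 libraries, against 39.2, 44.8 and 44.4 CPM in untreated libraries, and was not called (log2 -0.06, SE 0.06). It thus separated in H1650 and overlapped in A549. TM7SF2, a late sterol reductase, had 11.4, 11.02 and 11.3 CPM in A549 SRSF2 libraries, against 12.7, 14.1 and 11.7 CPM in untreated A549 libraries. MVK, TM7SF2 and NSDHL were called in neither line, with log2 fold changes of -0.06, -0.11 and 0.09 in H1650 and 0.14, -0.19 and 0.08 in A549. Without untreated replicate 3, NSDHL was called higher in H1650 (log2 0.15, edgeR adjusted p = 0.043).

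All 9 tested fatty acid genes were called in H1650, 3 higher and 6 lower, with a median log2 fold change of -0.35, where 62.3% of all genes were called. In A549, 3 rose, 1 fell and 5 were not called (44.4% called, against 32.3% of all genes), with a median of 0.01. The central enzymes of saturated and monounsaturated fatty acid synthesis accounted for the largest falls. FASN, the multifunctional synthase (GRCh38 chromosome 17, 82078333 to 82098332), had 327, 314 and 310.2 CPM in H1650 SRSF2 libraries, against 652, 635 and 668 CPM in untreated H1650 libraries (2.06-fold lower, log2 -1.04, SE 0.04, edgeR adjusted p = 1.32e-22). In A549 FASN had 675, 686 and 718.5 CPM in SRSF2 libraries, against 716, 729 and 672.5 CPM in untreated libraries (log2 -0.03, SE 0.04, edgeR adjusted p = 0.628). The A549 groups overlapped, and the H1650 groups lay far apart.

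SCD (GRCh38 chromosome 10, 100347124 to 100364834) had 253, 235 and 231.5 CPM in H1650 SRSF2 libraries, against 439, 454 and 437 CPM in untreated H1650 libraries (log2 -0.89, SE 0.04, edgeR adjusted p = 1.46e-19). In A549 SCD had 837, 879 and 858.5 CPM in SRSF2 libraries, against 808, 896 and 904 CPM in untreated libraries (log2 -0.02, SE 0.04, edgeR adjusted p = 0.761). As for FASN, only H1650 separated. ELOVL6 (GRCh38 chromosome 4, 110045846 to 110199199) had 21.7, 23.0 and 23.3 CPM in H1650 SRSF2 libraries, against 62.7, 63.2 and 62.6 CPM in untreated H1650 libraries (2.77-fold lower, log2 -1.47, SE 0.06, edgeR adjusted p = 1.49e-21). In A549 ELOVL6 had 34.95, 30.8 and 33.1 CPM in SRSF2 libraries, against 32.4, 31.1 and 34.5 CPM in untreated libraries (log2 0.01, SE 0.06, edgeR adjusted p = 0.896). The responses of FASN, SCD and ELOVL6 differed between the lines by -1.01, -0.87 and -1.48 on the log2 scale, H1650 minus A549 (edgeR adjusted p at most 8.34e-15).

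ACLY, ELOVL5 and FADS2 fell less in H1650. ACLY had 240.6, 232 and 242 CPM in H1650 SRSF2 libraries, against 304, 301 and 305 CPM in untreated H1650 libraries (log2 -0.35, SE 0.03, edgeR adjusted p = 4.96e-11). In A549 ACLY had 872, 920.5 and 901 CPM in SRSF2 libraries, against 976, 977 and 988.5 CPM in untreated libraries (log2 -0.13, SE 0.03, edgeR adjusted p = 0.00254). It was the one fatty acid gene to fall in A549. ELOVL5, an elongase of polyunsaturated fatty acids, changed by -0.37 in H1650 and -0.02 in A549. FADS2 changed by -0.25 in H1650 and 0.03 in A549, and both genes were called in H1650 only (edgeR adjusted p at most 1.58e-05). Their responses differed between the lines by -0.35 and -0.28 (edgeR adjusted p at most 1.96e-04).

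Against this trend, ELOVL1, ACSL3 and FA2H rose in both lines, each more in H1650. FA2H (GRCh38 chromosome 16, 74712955 to 74774831) had 59.1, 59.7 and 66.9 CPM in H1650 SRSF2 libraries, beside the 1.58 to 2.68 CPM of untreated H1650 libraries (27.9-fold, log2 4.80, SE 0.09, edgeR adjusted p = 3.89e-30). In A549 FA2H had 67.1, 66.9 and 70.8 CPM in SRSF2 libraries, against 44.9, 43.2 and 42.1 CPM in untreated libraries (log2 0.65, SE 0.06, edgeR adjusted p = 1.22e-10). The untreated lines were far apart at this gene, and the SRSF2 libraries of both lines covered nearly the same levels. ELOVL1, an elongase of saturated very long chains, had 185, 202 and 190.2 CPM in H1650 SRSF2 libraries, against 125, 124 and 127 CPM in untreated H1650 libraries (log2 0.62, SE 0.04). In A549 ELOVL1 had 129, 129.7 and 127 CPM in SRSF2 libraries, against 112, 108 and 109 CPM in untreated libraries (log2 0.23, SE 0.04). Both lines separated at ELOVL1. ACSL3, which activates fatty acids at lipid droplets, had 321, 309 and 319 CPM in H1650 SRSF2 libraries, against 211, 213 and 201 CPM in untreated H1650 libraries (log2 0.60, SE 0.04). In A549 ACSL3 had 279, 272 and 265 CPM in SRSF2 libraries, against 244, 248 and 251 CPM in untreated libraries (log2 0.14, SE 0.04), closer but apart. The edgeR adjusted p of ELOVL1 and ACSL3 was at most 0.00329 in each line. STARD4 rose in H1650 (log2 0.36, SE 0.06, edgeR adjusted p = 8.16e-06) and was at 0.02 in A549 (edgeR adjusted p = 0.888).

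**Figure D3:**
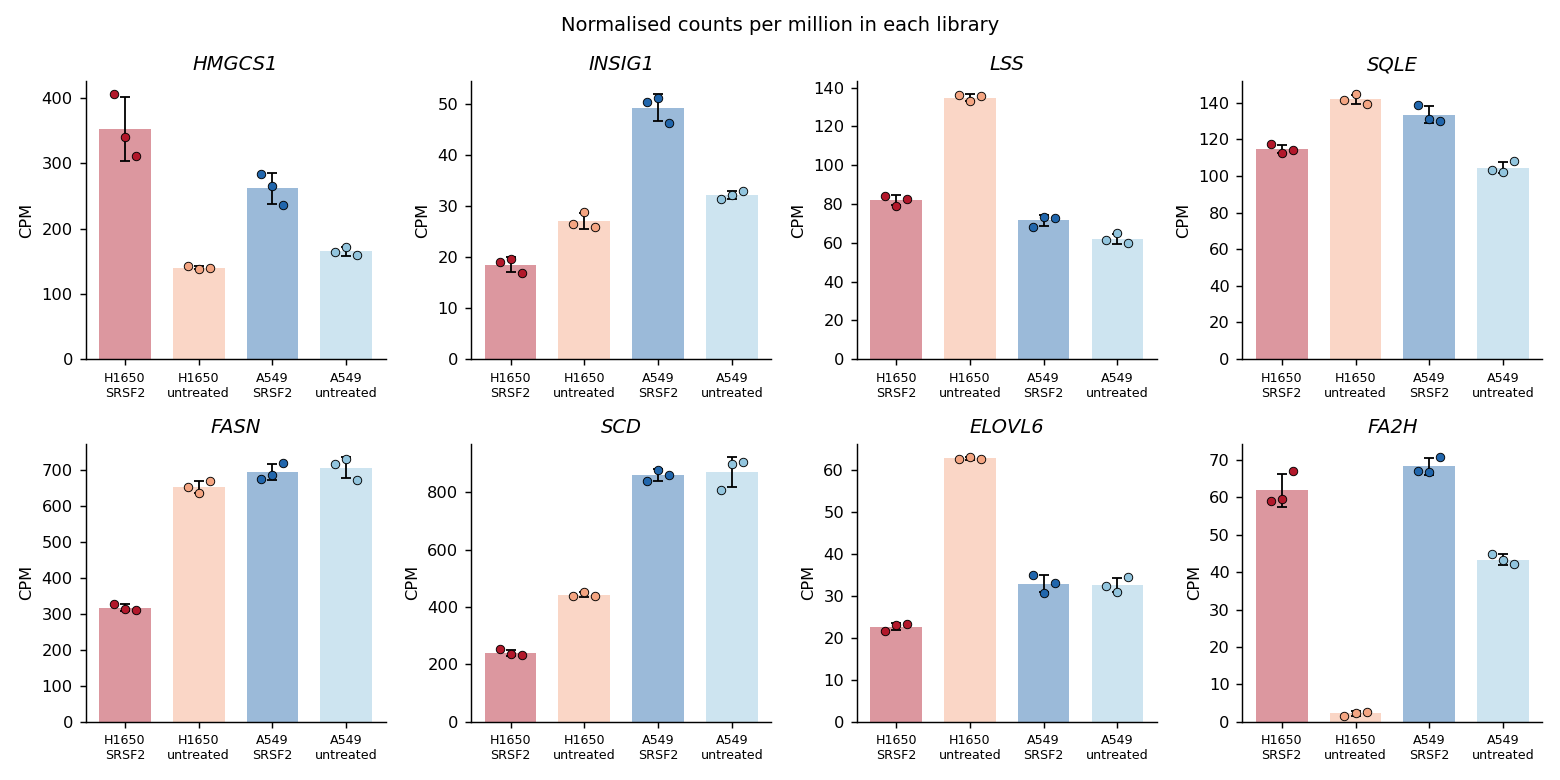
CPM of 8 members in each library (points, n = 3 per group), with group means (columns) and SD (bars). INSIG1, LSS and SQLE are lower with SRSF2 in H1650 and higher in A549, FASN, SCD and ELOVL6 are lower in H1650 and overlap in A549, and FA2H is at 59.1 to 66.9 CPM in H1650 SRSF2 libraries and 1.58 to 2.68 CPM in untreated ones.

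Setting the classes side by side, the summed level of the 17 sterol genes was 1159 ± 42.2 CPM in H1650 SRSF2 cells and 1030 ± 6.45 CPM in untreated H1650 cells (SD, n = 3 each). The increase rested on HMGCS1, since the sum of the other 16 genes was 807 ± 14.2 CPM in H1650 SRSF2 cells and 889.7 ± 7.23 CPM in untreated H1650 cells. In A549 the 17 genes summed to 1233 ± 29.99 CPM in SRSF2 cells and 996 ± 6.64 CPM in untreated cells, and without HMGCS1 to 971 ± 9.29 and 831 ± 13.1 CPM. The 9 fatty acid genes summed to 1607 ± 19.6 CPM in H1650 SRSF2 cells and 2074 ± 2.65 CPM in untreated H1650 cells. In A549 they summed to 3756 ± 73.7 CPM in SRSF2 cells and 3783 ± 47.5 CPM in untreated cells, which overlap. The ratio of the sterol sum to the fatty acid sum was thus 0.721 ± 0.0231 in H1650 SRSF2 cells and 0.496 ± 0.00254 in untreated H1650 cells, and 0.328 ± 0.0130 in A549 SRSF2 cells and 0.263 ± 0.00426 in untreated A549 cells. It was higher in every SRSF2 library than in every untreated library of the same line. In H1650 the ratio moved with a lower fatty acid sum and a higher HMGCS1 level, and in A549 with a higher sterol sum. These sums weigh genes by level and length and were not tested.

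**Figure D4:**
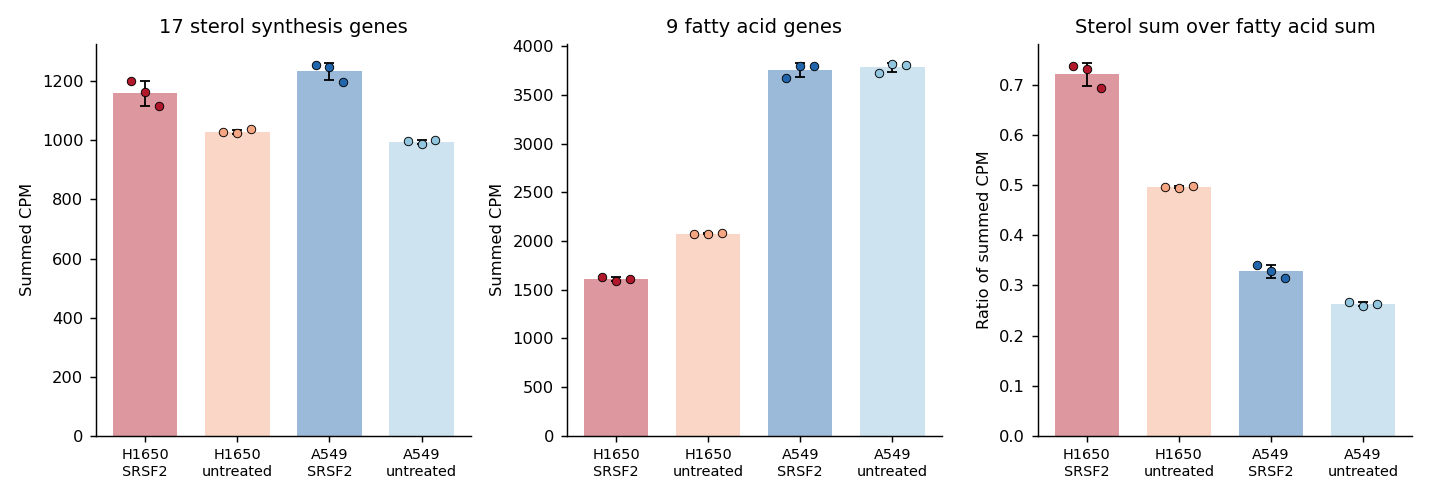
Summed CPM of the sterol synthesis genes (left) and of the fatty acid genes (middle), and their ratio (right), in each library (points, n = 3 per group), with means (columns) and SD (bars). The ratio averages 0.721 in H1650 SRSF2 and 0.496 in untreated H1650 cells, and 0.328 in A549 SRSF2 and 0.263 in untreated A549 cells.

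The responses of the lines were compared directly for each gene. Of 32 members, 26 responded differently (81.2%, against 47.5% of all genes tested). The response in H1650 was the lower one for 19 members and the higher one for 7, beside 24.0% and 23.5% of all genes. Among sterol genes 10 of 17 were lower in this sense and 3 higher, and among fatty acid genes 6 of 9 were lower and 3 higher. The calls for PMVK and EBP were lost in some refits. PMVK (log2 -0.26, edgeR adjusted p = 0.0121) reached an adjusted p of 0.0557 without A549 untreated replicate 1 and 0.0511 without A549 SRSF2 replicate 2. EBP (log2 0.25, edgeR adjusted p = 0.0106) reached 0.0586 without H1650 untreated replicate 1, 0.0501 without H1650 SRSF2 replicate 2, 0.0719 with plain library totals and 0.185 and 0.181 on the FPKM scales. Conversely, IDI1 was called without H1650 SRSF2 replicate 3 (log2 0.43, adjusted p = 0.0235), and MVK without H1650 SRSF2 replicate 2 (log2 -0.31, adjusted p = 0.0133) and with plain library totals (log2 -0.28, adjusted p = 0.0306).

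Genes that surround these pathways were read from further lists, whose counts stand beside 31.0% of all genes higher and 31.3% lower in H1650, and 16.4% higher and 15.9% lower in A549. Of genes whose proteins process SREBPs or turn over INSIG, 2 of 12 rose and 7 fell in H1650 (median log2 -0.17), 75.0% called against 62.3% of all genes. The proteases that release SREBPs in the Golgi were among them, MBTPS1 (log2 -0.61, SE 0.04) and MBTPS2 (-0.42, SE 0.05). In A549, 4 of the 12 rose and 3 fell (median 0.01), 58.3% called against 32.3%. MBTPS1 was at -0.16 there, and SEC24D, a coat protein of vesicles leaving the endoplasmic reticulum, at 0.82. MBTPS2 rose slightly in A549 (log2 0.12, SE 0.05, edgeR adjusted p = 0.0498). Genes that supply NADPH and cytosolic citrate to lipid synthesis fell in both lines, 7 of 9 in each, with 1 rising in H1650 and none in A549 (88.9% called against 62.3% of all genes in H1650, and 77.8% against 32.3% in A549). Their medians were -0.36 and -0.17. IDH1, a cytosolic source of NADPH, changed by -0.81 in H1650 and -0.26 in A549. Apart from MBTPS2 in A549, the edgeR adjusted p of these genes was at most 0.00112 where a change is named.

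Of sterol handling genes outside the listed enzymes, 8 of 15 rose and 4 fell in H1650 (median 0.13), and in A549 3 rose and 7 fell (median -0.05). The shares called were 80.0% in H1650, against 62.3% of all genes, and 66.7% in A549, against 32.3%. NCEH1, which hydrolyses cholesterol esters, averaged 199 ± 17.5 CPM in H1650 SRSF2 cells and 66.0 ± 0.772 CPM in untreated H1650 cells (log2 1.59, SE 0.05), and rose by 0.42 in A549. The lysosomal lipase LIPA (0.81) and the cholesterol acyltransferase SOAT1 (0.58) rose in H1650 too. NPC1, which exports cholesterol from lysosomes, rose in A549 (0.65, SE 0.04). Among 8 LXR and efflux genes, 3 rose and 2 fell in H1650, where the 62.5% called was close to the 62.3% of all genes, and 1 rose and 3 fell in A549 (50% called against 32.3%). The cholesterol exporter ABCA1 averaged 34.9 ± 0.645 CPM in H1650 SRSF2 cells and 58.7 ± 0.45 CPM in untreated H1650 cells, against 42.4 ± 2.23 CPM in A549 SRSF2 cells and 22.3 ± 1.61 CPM in untreated A549 cells. Its log2 fold change was -0.75 in H1650 and 0.93 in A549. ABCG1 and MYLIP, of the same list, were called the other way in both lines. They were at 1.57 and 1.08 in H1650 and -0.49 and -0.38 in A549. ABCG1 was low, at a mean of 0.704 CPM in untreated H1650 cells. The edgeR adjusted p was at most 0.0061 for ABCG1 and MYLIP, and at most 3.46e-08 for the other genes named here.

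Of fatty acid elongation and activation genes outside the members, 6 of 18 were higher and 6 lower in H1650 and 4 higher and 3 lower in A549, shares of 66.7% and 38.9% that lie near the 62.3% and 32.3% of all genes. In H1650 ACSS2, which makes acetyl-CoA from acetate, averaged 123.5 ± 6.83 CPM in SRSF2 cells and 65.5 ± 1.88 CPM in untreated cells (log2 0.92, SE 0.05), opposite in direction to ACLY. The acyl-CoA synthetase ACSL1 fell there (-0.85, SE 0.05), while ACSL3 rose. In A549 the elongase ELOVL7 (0.42) and the synthetase ACSL4 (0.30) rose. ELOVL7 rose in H1650 too (0.59), and its responses were not called different between the lines (edgeR adjusted p = 0.113). For the rises and falls named here, the edgeR adjusted p was at most 2.46e-05.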

How the data were processed

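Polyadenylated RNA was sequenced from 12 libraries in 4 groups of 3. The authors deposited raw counts per gene. The submitters' processing notes name fastp 0.20.1, STAR 2.7.7a, featureCounts 2.0.0 and the build GRCh38. Annotation release, strand use and the rule for keeping genes are not given in the sources used here. FPKM values, also deposited by the authors, served in alternatives only. Symbols were matched for 16076 IDs in a table of gene names and for 63 in GENCODE 29, and 460 IDs had none.

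All 12 libraries entered a single edgeR 4.0.16 quasi-likelihood fit of the counts (R 4.3.3, filterByExpr, TMM, 8 residual degrees of freedom), with Benjamini-Hochberg adjustment over 15991 genes. Differences between lines are H1650 minus A549. The SE was derived from each log2 fold change and its F statistic. The fit was first tested on simulated data. Replicates differed by more than sampling noise (2.24 to 7.78 chi-square units per degree of freedom). Alternatives were DESeq2 1.42.0, limma 3.58.1 on log2 FPKM, other scalings, no filter, a replicate block and leaving out each library. Members and lists were chosen with earlier results of these data known. Any member could be named, with values in every library for members called in both lines, the 6 largest and 6 smallest log2 fold changes per line and the 6 largest differences between lines, and up to 4 genes of each other list per line were named by the smallest adjusted p.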

Additional observations from a re-analysis of the deposited data

Results flagged for a closer look

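The responses of 26 members differed between the lines by the interaction term of the edgeR fit (adjusted p under 0.05). As H1650 minus A549 on the log2 scale, the response was lower for ELOVL6 (-1.48), INSIG1 (-1.16), FASN (-1.01), LSS (-0.92), SCD (-0.87), SQLE (-0.66), FDPS (-0.64), MSMO1 (-0.49), SREBF1 (-0.47), MVD (-0.44), HSD17B7 (-0.42), FDFT1 (-0.41), ELOVL5 (-0.35), DHCR7 (-0.30), FADS2 (-0.28), SREBF2 (-0.26), PMVK (-0.26), ACAT2 (-0.25) and ACLY (-0.22). It was higher for FA2H (4.15), HMGCS1 (0.66), ACSL3 (0.46), SC5D (0.40), ELOVL1 (0.39), STARD4 (0.35) and EBP (0.25). Groups of 3 libraries are too small for a check of single outlying libraries.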

How the results depend on the processing

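The number of members called was 23 in H1650 (23 to 26 under other scalings, tests and filters, and 23 to 24 with 1 library left out) and 18 in A549 (17 to 18 in both). It was 26 for the difference between lines (26 to 27, and 25 to 28) and 31 between the untreated lines (30 to 31 in both). With the replicate number as a replicate block these counts were 23, 18, 26 and 31, and no call of a member changed direction under any alternative run. The median log2 fold change of sterol genes in H1650 (-0.06) was -0.14 with plain library totals, and that of fatty acid genes (-0.35) was -0.43. Plain totals moved the median of all genes in H1650 by -0.08. With 1 library left out, sterol medians ran from -0.064 to -0.0063 in H1650 and 0.18 to 0.24 in A549, and fatty acid medians from -0.36 to -0.33 in H1650 and -0.00097 to 0.037 in A549. Of single-gene values, 21 calls changed side of the threshold with 1 library left out and 19 under other settings, and the cause was not tested. STARD4 between the untreated lines lost its call without a filter (adjusted p = 0.0736) and without A549 untreated replicate 1 or 3 or H1650 untreated replicate 2 or 3 (adjusted p = 0.0863, 0.0631, 0.0543 and 0.112), and FASN lost its call without A549 untreated replicate 2 (adjusted p = 0.0672). The labels do not say whether equal replicate numbers mark a shared culture or day. Residual correlations between libraries of equal number were -0.02 to 0.024, which cannot settle this with 3 libraries per group. The lowest count of a member was 49, for FA2H in an untreated H1650 library, and no other member was under 124 in any library.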

Other observations

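The counts of further lipid lists are given beside the share of all genes called, 62.3% in H1650 and 32.3% in A549. In the branch that leads from mevalonate to dolichol, ubiquinone and prenylated proteins, 5 of 10 genes rose and 3 fell in H1650 (80.0%), and 3 rose and none fell in A549 (30.0%, near the background). FNTA, a subunit of prenyl transferases, rose in both lines (log2 0.54 in H1650 and 0.29 in A549, edgeR adjusted p at most 8.62e-04). Among sphingolipid genes, 6 of 13 rose and 2 fell in H1650 (61.5%, at the background), and 4 rose and 2 fell in A549 (46.2%). UGCG, the glucosylceramide synthase, averaged 90.4 ± 6.12 CPM in H1650 SRSF2 cells and 62.3 ± 1.43 CPM in untreated H1650 cells, and 54.0 ± 4.08 CPM in A549 SRSF2 cells and 29.2 ± 2.22 CPM in untreated A549 cells (edgeR adjusted p at most 2.08e-10).

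In triglyceride and lipid droplet genes, 3 of 11 rose and 4 fell in H1650 (63.6%, at the background), and 5 rose and 2 fell in A549 (63.6%). LPIN1, a phosphatidate phosphatase, averaged 30.1 ± 2.31 CPM in H1650 SRSF2 cells and 48.1 ± 3.28 CPM in untreated H1650 cells, and 81.3 ± 2.38 CPM in A549 SRSF2 cells and 61.8 ± 0.682 CPM in untreated A549 cells, called in opposite directions (edgeR adjusted p at most 2.13e-07). Of fatty acid oxidation genes, 5 of 13 rose and 3 fell in H1650 (61.5%, at the background), and none rose and 6 fell in A549 (46.2%). CPT1A, the gate to mitochondrial oxidation, fell in H1650 (log2 -0.81, SE 0.05), and HADH fell in both lines (-0.86 and -0.35, edgeR adjusted p at most 1.07e-05). FEN1, which overlaps FADS2 on the same strand in GENCODE 29, has 230 counts over all 12 libraries. FADS2 has 117045.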
